A study of Mus musculus with 2 samples.

Results

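The genes described were Gstm1, Gstm5, Mgst1, Mgst2, Mgst3, Gsto1 and Gstp1, which encode enzymes of the glutathione transferase superfamilies. They were taken by gene symbol from a list of names, without a threshold on any value, but were chosen with earlier results of these data known. All 7 were listed in both libraries, out of 7181 genes listed for the WT and 6735 for the Cko. The libraries were made from RBC-free bone marrow cells (BMCs) of crushed and collagenase-digested fore- and hindlimbs of C57BL6/J mice at postnatal day 21, 1 library per genotype. The WT carried floxed Mbtps1 alleles without Cre (S1P f/f). The Cko carried the same alleles with the Osx1-GFP::Cre transgene (S1P f/f;Osx-Cre), which removes site-1 protease (S1P) wherever the osterix promoter has driven Cre. Mice with the Cre transgene alone were not used here. The study judged the transgene likely to be active in hematopoietic cells too. By PCR and sequencing it found the floxed exon removed in sorted neutrophils of every Cko mouse it analyzed for this. The deletion was thus not limited to bone-forming cells. By the methods of the study, each library came from 1 mouse. With 1 library per genotype no difference between WT and Cko was tested, and the intervals given are for counting error only.

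Glutathione transferases join the thiol of glutathione to electrophilic compounds such as the products of lipid peroxidation, or use glutathione to reduce peroxides. Gstm1, Gstm5, Gsto1 and Gstp1 encode soluble enzymes of the mu, omega and pi classes. Mgst1, Mgst2 and Mgst3 encode membrane-bound enzymes of a separate family that also holds leukotriene C4 synthase and the 5-lipoxygenase activating protein. Red cell precursors, which handle heme, iron and oxygen, and granulocytes, which make oxidants, are cells in which glutathione systems are well known.

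On GRCm38 the Gstm1 gene spans chr3:108012255-108017973 on the minus strand and Gstm5 spans chr3:107895821-107898686 on the plus strand. Mgst2 lies on the same chromosome at chr3:51660360-51682677. Mgst1 spans chr6:138140316-138156755, Mgst3 spans chr1:167371966-167393841, Gsto1 spans chr19:47854970-47864790 and Gstp1 spans chr19:4035407-4037985. The annotation gives protein coding genes at all 7 positions. In the levels below, Mgst3 and Gstm5 were highest in erythroid-like cells and Gstm1 and Mgst1 in granulocyte classes, with Mgst1 also high in monocyte-like cells. The promoters of these genes are shown. Each is 300 bases of RefSeq sequence (GRCm38.p6), 250 before and 50 after the start, read 5′ to 3′ along the gene. Capitals mark matches to the motifs searched.
Mgst3 (chr1:167393792-167394091, minus strand): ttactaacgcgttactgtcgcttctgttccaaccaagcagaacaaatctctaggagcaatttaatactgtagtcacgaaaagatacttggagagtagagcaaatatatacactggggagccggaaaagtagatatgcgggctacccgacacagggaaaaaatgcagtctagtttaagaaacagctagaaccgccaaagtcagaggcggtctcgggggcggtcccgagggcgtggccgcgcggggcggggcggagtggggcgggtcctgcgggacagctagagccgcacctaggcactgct
Gstm5 (chr3:107895604-107895903, plus strand): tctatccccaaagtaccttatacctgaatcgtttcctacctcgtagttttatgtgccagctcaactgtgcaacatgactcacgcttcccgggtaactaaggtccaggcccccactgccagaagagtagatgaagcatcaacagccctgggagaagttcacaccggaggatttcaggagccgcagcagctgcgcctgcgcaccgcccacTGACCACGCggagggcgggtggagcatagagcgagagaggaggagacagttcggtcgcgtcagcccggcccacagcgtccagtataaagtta
Gstm1, entry 1 of 2 (chr3:108017924-108018223, minus strand): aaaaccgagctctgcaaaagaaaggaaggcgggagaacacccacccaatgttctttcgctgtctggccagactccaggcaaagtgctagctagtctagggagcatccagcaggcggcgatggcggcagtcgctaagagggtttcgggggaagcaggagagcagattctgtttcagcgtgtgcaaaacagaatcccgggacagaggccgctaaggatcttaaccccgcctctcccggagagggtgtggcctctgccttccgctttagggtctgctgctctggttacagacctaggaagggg
Mgst1, entry 1 of 2 (chr6:138140277-138140576, plus strand): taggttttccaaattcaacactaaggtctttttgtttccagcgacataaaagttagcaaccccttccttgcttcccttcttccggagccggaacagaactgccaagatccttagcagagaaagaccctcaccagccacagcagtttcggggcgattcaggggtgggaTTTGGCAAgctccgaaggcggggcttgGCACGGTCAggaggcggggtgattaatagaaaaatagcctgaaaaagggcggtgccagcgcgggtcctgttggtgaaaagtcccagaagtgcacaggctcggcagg

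The motifs searched on both strands were the core of the antioxidant response element bound by Nrf2, with the letters TGACNNNGC, the GATA motif in the form AGATAA or the form TGATAA, and the C/EBP motif, with the letters TTGCNNAA. All 7 genes had an entry, 9 entries in all, since Gstm1 and Mgst1 have 2 each. Gstm5 held the Nrf2-type core as TGACCACGC at bases 209 to 217. Mgst1 held it on the other strand as GCACGGTCA at bases 195 to 203, and held a C/EBP match, TTTGGCAA, at bases 168 to 175. The other 7 entries, those of Mgst3 and Gstm1 included, held none of these letters in this window. Of 32851 mouse promoters of the same length, 12.39% held the antioxidant core, 18.61% either GATA form and 10.8% the C/EBP motif, and these matches are a description of letters.

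The WT library held 6287 barcodes and 56382459 unique molecular identifiers (UMIs, counted mRNA molecules), and the Cko library 3670 barcodes and 34447224 UMIs. The median depth per cell was 6977 UMIs (WT) and 7440 UMIs (Cko), and 28 barcodes occurred in both libraries. Mbtps1, the deleted gene, was at 31.9 CPM (UMIs of the gene per 1000000 UMIs) in the WT and at 31.2 CPM in the Cko over all cells, but the 3′ reads of this kit lie outside the floxed exon and so do not check the deletion. Cells were clustered over both libraries together without the Gst and Mgst genes. Clusters named from marker genes were erythroid-like (3588 WT and 574 Cko cells), granulocyte-monocyte progenitor (GMP)-like (341 and 254), immature neutrophil-like (478 and 637), monocyte-like (324 and 554) and B cell-like (856 and 620). A pair of clusters stayed unnamed because their genes pointed to more than 1 type. The first was led by Mmp8, Retnlg and Ly6g (171 and 549 cells) and the second by Cd34, Bex6 and Lgals1 and also held Mpo (322 and 297). Erythroid-like cells were divided by the share of their UMIs from 4 hemoglobin (Hb) genes into under 1%, 1 to 10%, 10 to 40% and at least 40%. A level is the CPM of a gene over all UMIs of a class in a library, and levels of different genes are not per length, since 3′ counting gives about 1 tag per molecule whatever the length.

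The 7 genes divided between lineages in both libraries. Mgst3 and Gstm5 were at their highest levels in erythroid-like cells, Gstm1 in GMP-like cells, and Mgst1 and Mgst2 along the neutrophil path. Gsto1 was shared between early cells of several lineages, and Gstp1 was low throughout. Erythroid-like cells held 96.8% of the Gstm5 UMIs and 95.7% of the Mgst3 UMIs of the WT library, and 85.4% and 82.9% in the Cko library, where they gave 20.7% of all UMIs against 61.5% in the WT. GMP-like cells held 60.7% of the Gstm1 UMIs in the WT and 54.5% in the Cko from 7.16% and 11.1% of all UMIs.

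The remaining classes had under 50 cells in at least 1 library and were too small for a call. Stromal-like cells, which hold the bone-forming cells that the osterix promoter marks, were few (30 WT and 18 Cko cells). Mgst1 was at 463 CPM in those of the WT and 526 CPM in those of the Cko, and Gstm5 at 95.4 CPM (20 UMIs) and 55.8 CPM (7 UMIs). In dendritic-like cells (43 and 49) Mgst2 had 3 UMIs in the WT and 34 in the Cko, a ratio of 8.74 (2.75 to 44.5). In macrophage-like cells (53 and 9) Mgst3 was at 400 CPM (159 UMIs) in the WT and 259 CPM (12 UMIs) in the Cko, above the other classes outside the erythroid lineage. Hemoglobin UMIs were at 228933 and 93221 CPM in these cells, and Mgst3 had 1.75 and 2.77 UMIs per 1000 of them, against 3.02 and 2.43 over the whole libraries, a part that was not tested. Gstm5 had 23 UMIs (57.9 CPM) in macrophage-like cells of the WT and 0 in those of the Cko. Gsto1 was the gene with the most UMIs in basophil or mast-like cells (22 in 17 WT cells and 18 in 23 Cko cells) and in megakaryocyte-like cells (42 in 30 and 22 in 15). In T/NK-like cells (18 and 63) Mgst2 had 5 UMIs in the WT and 37 in the Cko.

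**Figure D1:**
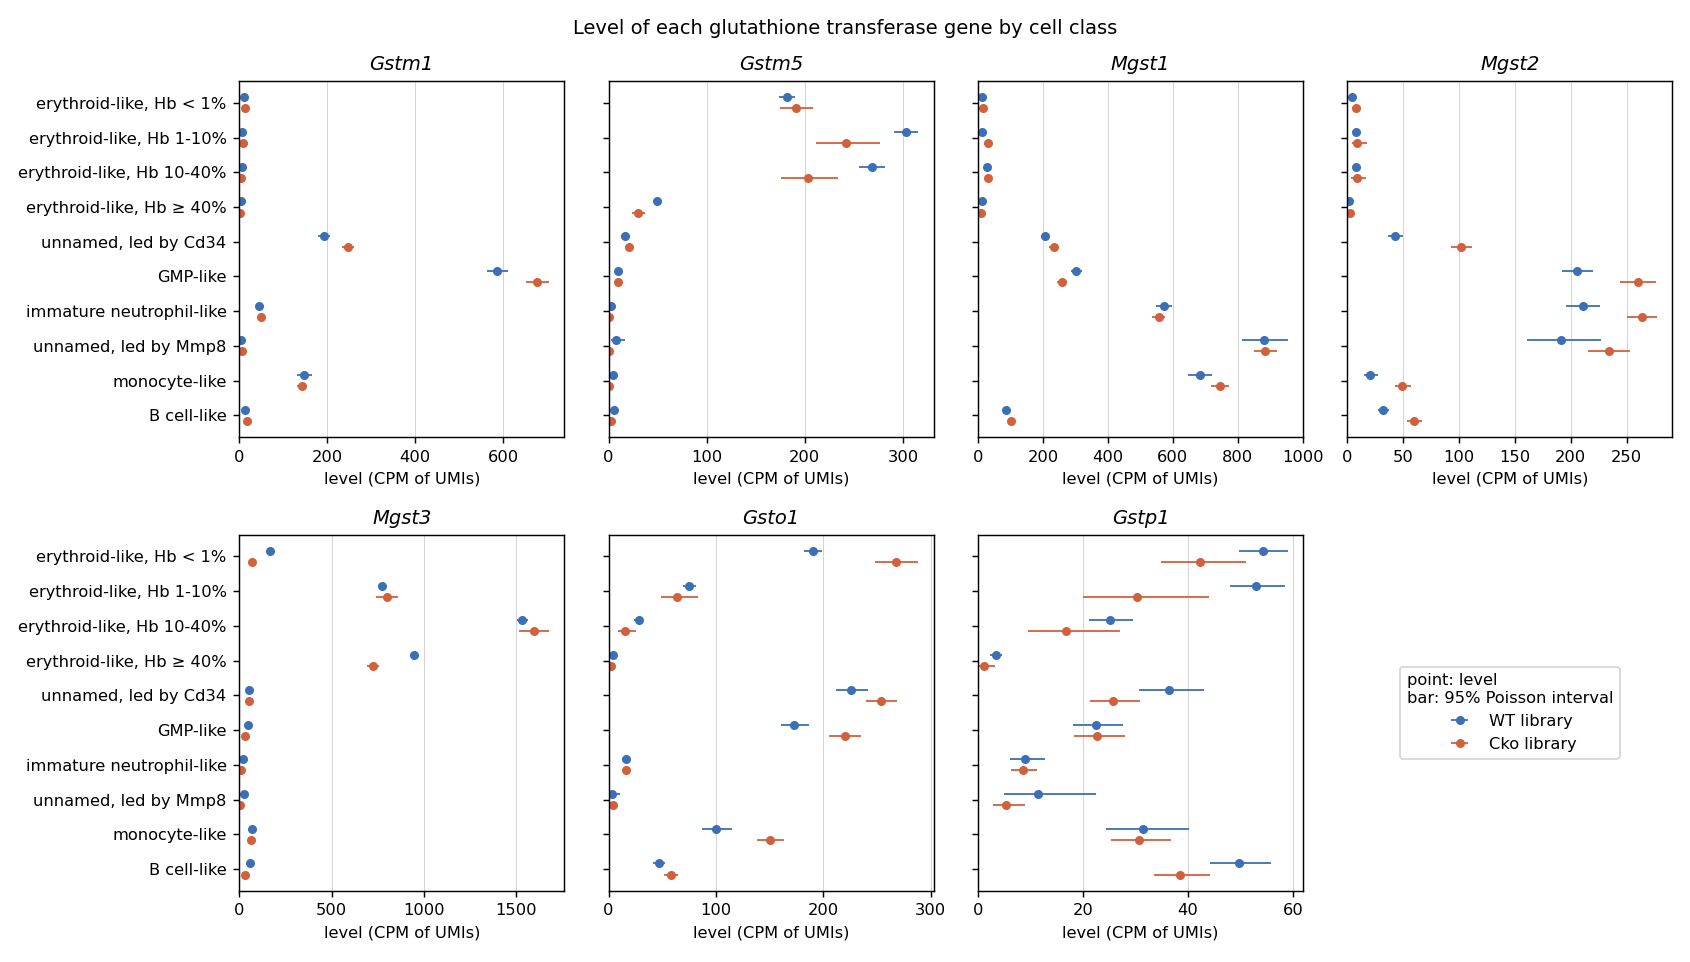
Level of each gene (x axis, CPM of UMIs, a separate linear scale per gene) in 10 classes of cells (y axis) of the WT (blue) and Cko (orange) library; points are levels and bars 95% Poisson intervals. Mgst3 and Gstm5 stand out in the erythroid-like rows, Gstm1 in the GMP-like row, Mgst1 in the neutrophil and monocyte rows and Mgst2 in the GMP and neutrophil rows, and the WT and Cko points mostly lie close together against the differences between classes.

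Mgst3, a membrane enzyme with glutathione transferase and peroxidase activity, reached the highest class level of the 7 genes. Its level in the WT was 166 CPM in erythroid-like cells under 1% Hb, 772 CPM at 1 to 10%, 1533 CPM (95% Poisson interval 1502 to 1565) at 10 to 40% and 944 CPM at 40% and over. In the Cko the same groups were at 71.3, 800, 1594 (1515 to 1676) and 724 CPM. The level thus climbed over the first 3 groups and was lower in the fourth in both libraries. Elsewhere it was between 23.4 and 68.4 CPM in the WT and between 4.24 and 63.7 CPM in the Cko over the 6 other classes with at least 50 cells in each library. The fall in the last group depended on the total used. Per UMI that is not from a hemoglobin gene, the WT level went on from 1963 to 2939 CPM, a ratio of 1.497 (1.46 to 1.54), and the Cko level from 2138 to 2210 CPM, a ratio of 1.03 (0.97 to 1.11).

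Gstm5, a mu class enzyme, was an earlier erythroid gene. In the WT it was at 182 CPM under 1% Hb, 303 CPM at 1 to 10%, 268 CPM at 10 to 40% and 49.0 CPM at 40% and over, and in the Cko at 191, 242, 204 and 30.03 CPM. The Cko order of the 10 to 40% and under 1% groups was within counting error (176 to 234 and 174 to 208 CPM). Between the last 2 groups its level dropped to 0.44 of its value in the WT (0.40 to 0.49) and to 0.34 in the Cko (0.26 to 0.44) even without the hemoglobin UMIs, so that its loss in the most hemoglobinized cells did not rest on the total. Its neighbour on the chromosome, Gstm1, was at 3.11 to 10.3 CPM in the erythroid-like groups of the WT. Outside the erythroid-like groups Gstm5 reached at most 16.5 CPM in the WT and 20.5 CPM in the Cko, both in the Cd34-led cluster, among classes of at least 50 cells in each library.

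Gsto1, an omega class enzyme with thiol transferase and dehydroascorbate reductase activity, was highest in the group with the least hemoglobin. In the WT its level was 191 CPM under 1% Hb, 75.0 CPM at 1 to 10%, 28.0 CPM at 10 to 40% and 4.39 CPM at 40% and over. The Cko levels were 268, 64.0, 15.7 and 2.25 CPM. The level went down at each step in both libraries, and the interval of each step lay below 1. Gstp1, the pi class enzyme, was at 54.2, 53.1, 25.1 and 3.38 CPM over the 4 groups of the WT and at 42.4, 30.3, 16.7 and 1.13 CPM over those of the Cko. For Gstp1 the first step was within counting error in both libraries.

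**Figure D2:**
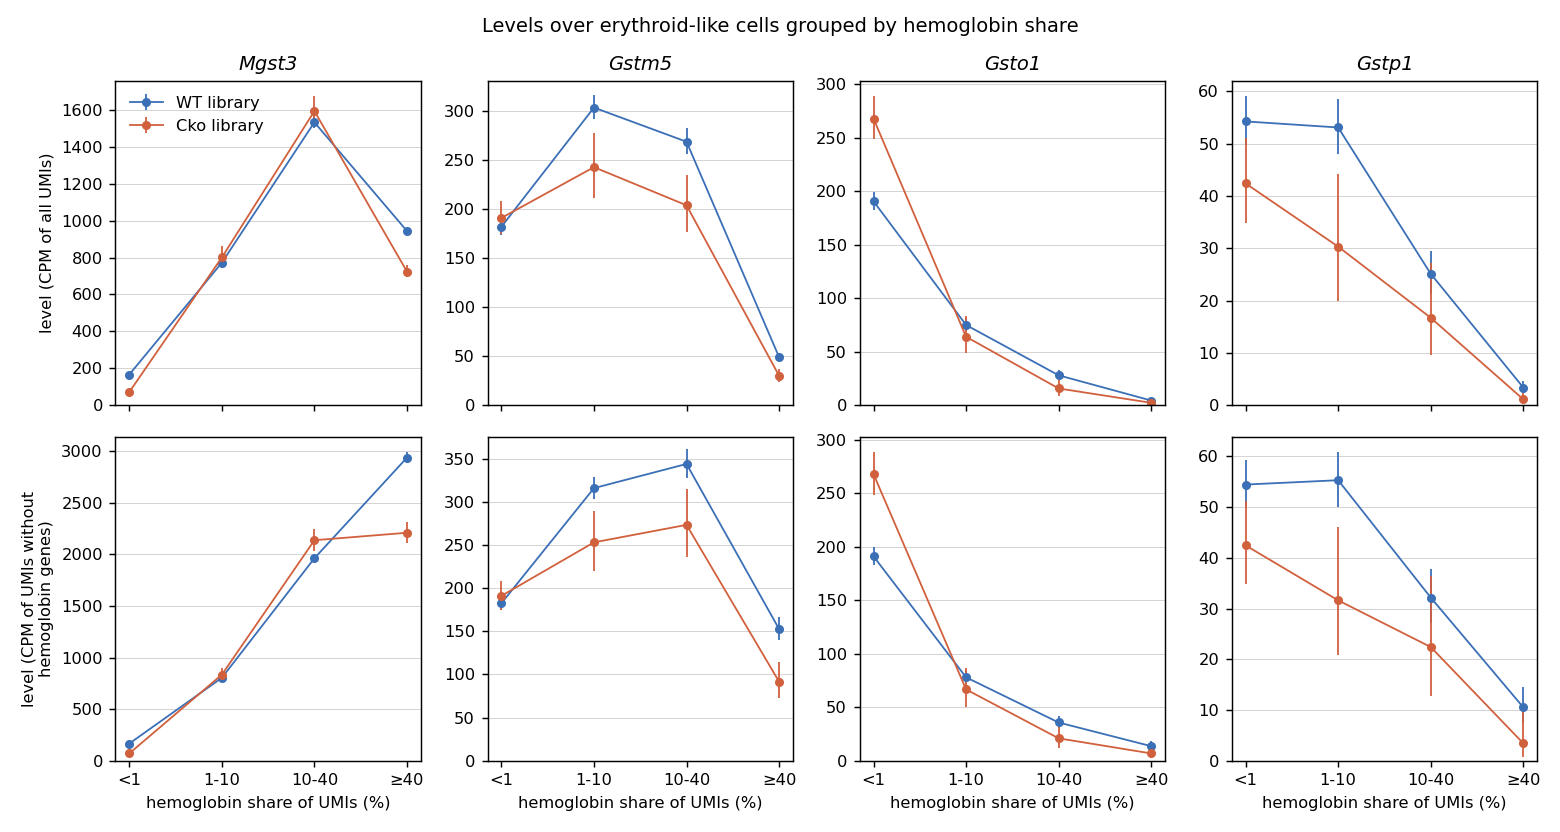
Levels of Mgst3, Gstm5, Gsto1 and Gstp1 (y axis, linear) in erythroid-like cells grouped by the hemoglobin share of their UMIs (x axis, %), as CPM of all UMIs (upper row) and as CPM of UMIs without the 4 hemoglobin genes (lower row); points are levels, bars 95% Poisson intervals, blue WT and orange Cko. Gsto1 goes down from left to right, Gstm5 is highest in the middle groups, and Mgst3 falls in the last group per total UMI but not without hemoglobin.

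On the granulocyte side, Gstm1, a mu class enzyme, was a progenitor gene. It was at 587 CPM (564 to 611) in GMP-like cells of the WT and at 677 CPM (651 to 704) in those of the Cko, and at 193 and 247 CPM in the Cd34-led cluster. Immature neutrophil-like cells held 45.5 CPM in the WT and 48.8 CPM in the Cko, and the Mmp8-led cluster 4.29 and 5.40 CPM. From GMP-like to immature neutrophil-like cells the Gstm1 level was thus 12.9-fold lower (11 to 15.2) in the WT and 13.9-fold lower (12.3 to 15.7) in the Cko. In monocyte-like cells it was 147 CPM in the WT and 142 CPM in the Cko, between the progenitors and the neutrophils. Of the 98-base windows in the last 500 bases of its transcripts, 9.03% also occurred in Gm8834, Gstm2-ps1 or Gstm3, so its level is uncertain to that extent.

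Mgst1, a microsomal transferase and peroxidase of the endoplasmic reticulum and mitochondria, ran the other way along the same path. The WT level was 208 CPM in the Cd34-led cluster, 303 CPM in GMP-like, 573 CPM in immature neutrophil-like and 882 CPM (813 to 954) in the Mmp8-led cells. The Cko levels were 233, 258, 557 and 885 CPM (849 to 922). Each successive class had the higher level in both libraries, with intervals apart except between the Cd34-led and GMP-like cells of the Cko, whose ratio was 1.11 (1.01 to 1.21). Monocyte-like cells were at 683 CPM in the WT and 746 CPM in the Cko. The B cell-like cluster led by Igkc, Iglc2 and Ighm (79 and 78 cells), genes of more mature B cells, was at 433 and 413 CPM. The B cell-like cluster led by Igll1, Vpreb1 and Dntt, genes of early B cells, was at 36.0 and 48.0 CPM. At the highest resolution tried, the Igkc-led cluster held 33 WT and 42 Cko cells. Another cluster, led by Retnlg, Ly6d and Ms4a1 and then Mmp8, held 45 and 36 cells and joins B cell and neutrophil genes. Its overlap with the 79 and 78 cells, and the part of neutrophil RNA in their Mgst1 level, was not tested. Erythroid-like groups held 12.8 to 27.1 CPM of Mgst1 in the WT and 8.63 to 31.3 CPM in the Cko. All erythroid-like cells had 544 WT and 123 Cko UMIs of Mgst1. Of these, 309 and 64 were in a cluster led by Acp5, Ly6d and Retnlg (202 and 30 cells). That cluster joins erythroid and neutrophil genes and was at 157 and 150 CPM.

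Mgst2, which can make leukotriene C4, was about level from GMP-like to neutrophil cells. It was at 206 CPM in GMP-like, 211 CPM in immature neutrophil-like and 191 CPM in Mmp8-led cells of the WT, and at 260, 264 and 234 CPM in those of the Cko, and the intervals of neighbours in these orders overlapped. The ratio of Mmp8-led to immature neutrophil-like cells was 0.91 (0.75 to 1.09) in the WT and 0.89 (0.81 to 0.98) in the Cko. It rose 4.81-fold (4.06 to 5.73) from the Cd34-led cluster to GMP-like cells in the WT and 2.55-fold (2.28 to 2.85) in the Cko. Monocyte-like cells held 10.1-fold less than GMP-like cells (7.403 to 14.1) in the WT and 5.27-fold less (4.51 to 6.19) in the Cko. Mgst1 and Mgst2 thus parted in monocyte-like cells, where Mgst1 was among the highest and Mgst2 low.

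Gsto1 was shared by early cells. In the WT it was at 226 CPM in the Cd34-led cluster, 191 CPM in erythroid-like cells under 1% Hb and 173 CPM in GMP-like cells, and in the Cko at 254, 268 and 220 CPM. The highest class differed between the libraries, but in the Cko the first and second overlapped. It fell 10.8-fold (8.20 to 14.4) from GMP-like to immature neutrophil-like cells in the WT and 13.2-fold (10.7 to 16.5) in the Cko. Gstp1 had no such peak. Its highest levels were 54.2 CPM in erythroid-like cells under 1% Hb and 49.8 CPM in B cell-like cells of the WT, and 42.4 and 38.6 CPM in those of the Cko, with overlapping intervals. For Gstp1, 29.9% of the windows near the transcript end also occurred in Gstp2 or Gstp-ps, so its level is uncertain.

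The unevenness of a gene was measured as the level of its highest class over that of its median class among 9 classes with at least 50 cells in each library. It was 44.2 for Gstm1, 27.7 for Gstm5 and 27.2 for Mgst3 in the WT, and 36.9, 21.6 and 30.7 in the Cko. For Mgst2 it was 6.55 (WT) and 4.43 (Cko), while Gsto1 and Mgst1 lay between 3.80 and 4.84 in the 2 libraries. Gstp1 was the most even, at 2.16 and 1.86. Of 4639 genes, 13.3% in the WT and 14% in the Cko reached 5, and of the 7 genes 4 did in the WT and 3 in the Cko. The 7 were chosen with earlier results of these data known, so these counts are a description and not a test. A ratio at least as high as that of Gstm1 was found for 1.88% of genes in the WT and 3.23% in the Cko.

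The shares of cells with a UMI were highest in the same classes for Gstm1 and Mgst3. After each cell was thinned to 3000 UMIs, Gstm1 was found in 73.9% of GMP-like cells in the WT and 80.7% in the Cko, against 2.15% and 4.55% of erythroid-like cells under 1% Hb. Mgst3 was found in 96.3% and 95.1% of erythroid-like cells at 10 to 40% Hb, against 6.28% and 2.83% of immature neutrophil-like cells. Without thinning these 4 pairs were 96.5% and 98.4%, 9.34% and 23.6%, 99.2% and 98.8%, and 15.3% and 7.85%. The median depth in the WT and the Cko was 11540 and 14670 UMIs in GMP-like cells, 17860 and 22390 in erythroid-like cells under 1% Hb, 8602 and 11750 at 10 to 40% Hb, and 7032 and 8614 in immature neutrophil-like cells.

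The genes whose levels over the 9 classes were most like those of each gene were named by the mean of the WT and Cko correlations of log2(CPM + 10). These 9 points share libraries and depth, and the correlations are descriptions. Gstm1 was nearest to Prtn3, Elane and Mpo (r from 0.95 to 0.97), the granule enzymes of early myeloid cells. Gstm5 was nearest to Smim1, Car1 and Bex4 (0.96 to 0.97), of which Smim1 carries a red cell blood group antigen and Car1 is the carbonic anhydrase of red cell precursors. Mgst3 was nearest to Pigq, March5 and Gypc (all 0.98), the last of which is a glycophorin of the red cell membrane. Mgst1 was nearest to Sla, Tmsb4x and Cotl1 (all 0.99), and Mgst2 to Serpinb1a, Lta4h and Plin3 (0.97 to 0.99), where Serpinb1a is an inhibitor of neutrophil proteases and Lta4h the hydrolase that makes leukotriene B4. Gsto1 was nearest to 2210013O21Rik, Lman2 and Agpat5, and Gstp1 to Supt5, Papola and Idh3b (0.98 to 0.99 in both). Among the 7, the closest profiles were Mgst1 with Mgst2 (r of 0.82 for the WT and 0.86 for the Cko), Gsto1 with Gstp1 (0.78 and 0.85) and Gstm5 with Mgst3 (0.82 and 0.70), and Mgst2 and Mgst3 ran against each other (−0.79 and −0.84).

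Over all cells, levels moved in both directions between the libraries. Mgst1 was at 130 CPM in the WT and 327 CPM in the Cko, Mgst2 at 40.6 and 123 CPM, and Gstm1 at 69.3 and 138 CPM. Mgst3 was at 504 and 153 CPM, Gstm5 at 116 and 33.6 CPM, Gstp1 at 32.2 and 22.7 CPM and Gsto1 at 87.9 and 113 CPM. With a call set at 1.5-fold, 3 of the 7 were higher in the Cko, where 18.4% of all 5871 genes with at least 100 UMIs were, and 2 were lower, where 13.3% were. In these totals a shift in the mix of cell classes and a shift in RNA within a class cannot be told apart, so the WT level of each class was also weighted by the share of UMIs that the class had in the Cko. This mix alone gave Cko/WT ratios of 2.47 for Mgst1, 2.16 for Mgst2, 1.73 for Gstm1, 0.37 for Mgst3 and 0.34 for Gstm5, against measured ratios of 2.52, 3.04, 1.99, 0.30 and 0.29. With the mix held at that of the Cko, the ratio that was left was 1.02 for Mgst1, 1.15 for Gstm1, 1.41 for Mgst2, 1.23 for Gsto1, 0.86 for Gstm5, 0.82 for Mgst3 and 0.79 for Gstp1. Mgst2 had the ratio farthest from 1 of the 7.

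**Figure D3:**
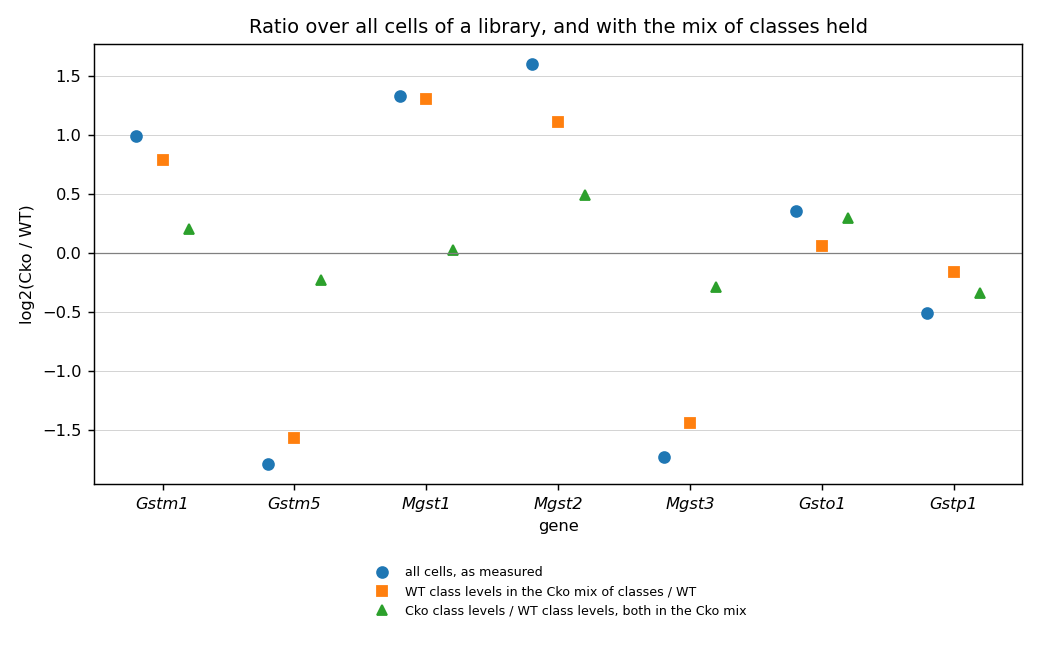
Cko/WT ratio of each gene on a log2 scale (y axis) over all cells as measured (circles), with WT class levels in the Cko mix of classes against the WT library (squares), and with Cko against WT class levels both in the Cko mix (triangles). Circles and squares lie closest for Mgst1, followed by Gstm1, Gstm5 and Mgst3, while the triangles stand for ratios between 0.79 and 1.41.

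Within classes most ratios were small. Of 63 pairs of a gene and a class, 46 had at least 100 UMIs over both libraries, and 34 of these were within 1.5-fold. A ratio of at least 1.5 was found in 4 pairs and one of at most 1/1.5 in 8 pairs. The 4 higher pairs were 3 of Mgst2 and 1 of Gsto1, and the 8 lower ones were 4 of Mgst3 and 1 each of Gstm5, Gsto1, Gstp1 and Mgst1. Gstm1 had no called pair. The share of all genes called in the same class and direction is given below with the first pair of that class. In the other directions these shares were 3.28% higher at 10 to 40% Hb, 10.8% higher at 40% Hb and over, 3.38% higher in GMP-like, 3.7% higher in immature neutrophil-like, 9.07% lower in monocyte-like and 2.99% lower in Cd34-led cells, with 0 of the 7 genes called there. In the Mmp8-led cluster 7.8% of genes were called higher and 2.84% lower, and 0 of the 7 genes were called. Over all erythroid-like cells as 1 class 6.99% of genes were called higher and 6.48% lower, again with 0 of the 7.

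**Figure D4:**
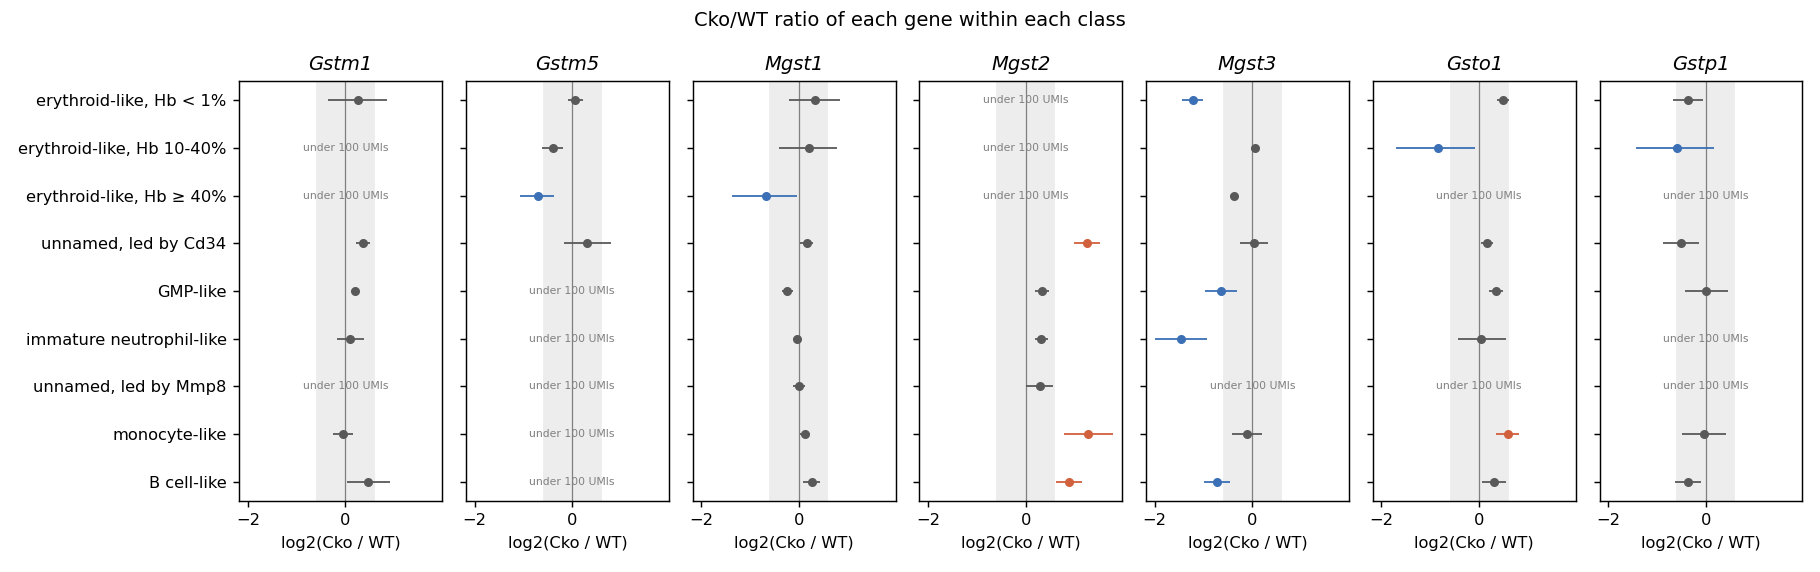
Cko/WT ratio of each gene on a log2 scale (x axis) within the 9 classes with at least 50 cells in each library (y axis); points are ratios, bars exact 95% intervals for counting error, the grey band marks 1.5-fold either way, and pairs under 100 UMIs over both libraries are named as such. Orange points, 3 of them for Mgst2, are called higher in the Cko and blue points, 4 of them for Mgst3, lower.

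Mgst2 was higher in the Cko in 3 classes where its WT level was low. In the Cd34-led cluster it was at 42.7 CPM in the WT and 102 CPM in the Cko, a ratio of 2.38 (1.99 to 2.86), in a class where 2.12% of 4912 genes were called higher. In monocyte-like cells it was at 20.4 and 49.3 CPM, a ratio of 2.42 (1.72 to 3.47), where 5.5% of genes were called higher. In B cell-like cells it was at 32.1 and 59.5 CPM, a ratio of 1.85 (1.54 to 2.23), where 2.46% were. The libraries differed in this gene in the same direction in each B cell-like cluster, with ratios of 2.58 (1.59 to 4.31), 1.91 (1.51 to 2.41) and 1.48 (0.99 to 2.25) in the clusters led by Myl4, Igll1 and Igkc. The monocyte-like class was made of different clusters in the libraries, since the one led by Wfdc17, Sirpb1c and H2-Aa held 45 of 324 WT cells and 279 of 554 Cko cells. In the cluster led by Fn1, S100a4 and Lgals3 (279 and 275 cells) the Mgst2 ratio was 3.15 (2.21 to 4.59), and in the Wfdc17-led cluster it was 1.25 (0.38 to 6.44). In the classes where Mgst2 was high, its ratio was smaller and uncalled, at 1.26 in GMP-like, 1.25 in immature neutrophil-like and 1.22 in Mmp8-led cells. The summed 10 immature neutrophil markers, which mark cells rich in Mgst2, were at 2544 CPM in monocyte-like cells of the WT and 5672 CPM in those of the Cko. They were at 2430 and 2347 CPM in the Cd34-led cluster and at 6287 and 5206 CPM in B cell-like cells. Markers of GMP-like cells, which are also rich in Mgst2, are not given here. The part of such cells in the Mgst2 ratios of these classes was not tested.

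Gsto1 was at 100 CPM in monocyte-like cells of the WT and 151 CPM in those of the Cko, a ratio of 1.501 (1.28 to 1.77) at the edge of the call. Within the clusters of that class the ratio was 1.24 (1.03 to 1.5) in the Fn1-led and 1.55 (1.03 to 2.44) in the Wfdc17-led cells, and the WT held few of the second, as above. In erythroid-like cells at 10 to 40% Hb it was at 28.0 CPM (167 UMIs) and 15.7 CPM (15 UMIs), a ratio of 0.56 (0.31 to 0.95), where 14.5% of 3810 genes were called lower. Under 1% Hb the Gsto1 ratio was 1.41 (1.29 to 1.53). The Gsto1 ratio thus lay on opposite sides of 1 in these groups. Gsto1 went down with the hemoglobin share, as above, and this share differed between the libraries within both groups. Its median per cell was 0.29% in the WT and 0.062% in the Cko under 1% Hb. At 10 to 40% Hb it was 22.85% and 27.17%. The part of this difference in the Gsto1 ratios was not tested.

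Mgst3 was lower in the Cko in the least hemoglobinized erythroid-like cells and in some classes where it was low. Under 1% Hb it was at 166 CPM in the WT and 71.3 CPM in the Cko, a ratio of 0.43 (0.37 to 0.50), where 8.95% of 4904 genes were called lower and 6.93% higher. The same cells were mostly of 1 cluster, led by Mt2, Mt1 and Fam132a, in both libraries (96.9% in the WT and 92.7% in the Cko). Over all cells of that cluster the level was 253 and 125 CPM, a ratio of 0.49 (0.44 to 0.55). Hemoglobin UMIs moved with it within the class, at 3563 CPM in the WT and 1259 CPM in the Cko, as did the 21 erythroid markers, at 10477 and 7397 CPM. Mgst3 had 46.7 UMIs per 1000 hemoglobin UMIs in these cells of the WT and 56.6 in those of the Cko. The part of the hemoglobin difference in the ratio of the class or of the cluster was not tested. At 1 to 10% Hb, where the Cko had 46 cells and no call was made, the levels were 772 and 800 CPM. The ratio was 1.04 at 10 to 40% and 0.77 (0.73 to 0.81) at 40% and over.

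In classes outside the erythroid lineage, Mgst3 was at 56.3 CPM in B cell-like cells of the WT and 34.1 CPM in those of the Cko, a ratio of 0.61 (0.50 to 0.73), where 3.22% of genes were called lower. In GMP-like cells it was at 50.4 and 32.4 CPM, a ratio of 0.64 (0.51 to 0.81), where 3% were called lower. In immature neutrophil-like cells it was at 23.4 and 8.57 CPM, a ratio of 0.37 (0.25 to 0.53), where 2.15% were. Red cell RNA was also higher in these classes of the WT. Hemoglobin UMIs were at 11875 CPM in B cell-like, 11332 CPM in GMP-like and 5036 CPM in immature neutrophil-like cells of the WT, and at 1580, 2219 and 828 CPM in those of the Cko. With non-erythroid cells of at least 1% Hb left out, the Mgst3 ratio was 0.77 in B cell-like, 1.01 in GMP-like and 0.40 in immature neutrophil-like cells. Mgst3 had 4.74, 4.44 and 4.65 UMIs per 1000 hemoglobin UMIs in these 3 classes of the WT, and 3.02 over the whole library. In the Cko it had 21.6, 14.6 and 10.4, and 2.43 over the whole library.

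In erythroid-like cells at 40% Hb and over, 14.1% of 3196 genes were called lower. The class was made of different clusters in the libraries, since the one led by Gch1, Hba-a2 and Hbb-bs held 36.7% of its WT cells and 10.7% of its Cko cells. Gstm5 was at 49.0 CPM in the WT and 30.03 CPM in the Cko, a ratio of 0.61 (0.48 to 0.78). In the cluster led by Gch1, Hba-a2 and Hbb-bs Gstm5 had 61 UMIs in the WT and 0 in the Cko, a ratio of 0 (0 to 0.905). Its ratio was 0.35 (0.26 to 0.45) in the cluster led by Gm867, Hemgn and Gch1. It was 0.72 (0.47 to 1.05) in the cluster led by Acp5, Ly6d and Retnlg. On the other side of 1, it was 1.91 (1.06 to 3.43) in the cluster led by Tmcc2, Xpo7 and Rsad2, from 29 and 23 UMIs, too few for a call. It was 1.31 (0.42 to 3.49) in the cluster led by Bpgm, Fam220a and Hba-a2. Over the whole class Mgst1 was at 13.8 and 8.63 CPM, a ratio of 0.63 (0.38 to 0.97). This ratio turned to 1.06 when the cluster led by Acp5, Ly6d and Retnlg, which joins erythroid and neutrophil genes, was left out. Gstp1 at 10 to 40% Hb was at 25.1 and 16.7 CPM, a ratio of 0.67 (0.37 to 1.12) that includes 1.

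Gstm1 ratios were 1.15 (1.09 to 1.22) in GMP-like cells, 1.28 (1.17 to 1.41) in the Cd34-led cluster, 1.07 (0.88 to 1.31) in immature neutrophil-like and 0.97 (0.84 to 1.12) in monocyte-like cells. Mgst1 ratios lay between 0.85 and 1.12 in the granulocyte, monocyte and Cd34-led classes, 1.003 (0.92 to 1.10) in the Mmp8-led cluster among them. In these classes the WT and Cko levels of both genes were within 1.3-fold. With each library clustered on its own, the class with mature neutrophil markers (145 WT and 191 Cko cells) had an Mgst1 ratio of 4.07. The class with stem and progenitor markers was led by Ctla2a in the WT (223 cells) and by Mt2 in the Cko (219 cells). Its ratio was 0.63 for Mgst1 and 0.49 for Gstm1. These classes do not hold the same cells as the Mmp8-led and Cd34-led clusters, so the ratios are not of matched cells. The median ratio of all genes with enough UMIs was between −0.17 and 0.07 on the log2 scale over the 9 classes and was below −0.1 in B cell-like cells, monocyte-like cells and the erythroid-like groups under 1% and at 10 to 40% Hb.

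Other genes of the glutathione and redox systems came from lists of 77 genes, of which 46 were listed in both libraries. By highest class in both libraries, 22 of the 46 were erythroid, 10 granulocyte, 6 monocyte and 1 B cell genes. Of the granulocyte genes, 7 were highest in the unnamed Mmp8-led cluster in both libraries. Erythroid-like cells gave several of the 9 classes compared. The share of all genes by highest class was not counted, so these counts are a description and show no bias of these genes. Of the genes that make and recycle glutathione, Gclm, the regulatory subunit of the enzyme that starts its synthesis, was highest in erythroid-like cells at 40% Hb and over (750 CPM in the WT and 673 CPM in the Cko), as was Mgst3 without hemoglobin. Gsr, the reductase that regenerates glutathione, was highest in GMP-like cells of the WT (574 CPM) and in immature neutrophil-like cells of the Cko (573 CPM). Gpx1, a peroxidase, reached 4239 and 5361 CPM in the most hemoglobinized group, and Prdx2, the peroxiredoxin of red cells, 3995 and 4437 CPM at 10 to 40% Hb, the group in which Mgst3 was highest. Prdx5 reached 3297 and 3630 CPM in the Mmp8-led cluster, the class highest in Mgst1, and Alox5ap, of the same membrane family as Mgst1, 1199 and 1676 CPM there.

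Calls among these genes, which include no member, were near the share of all genes in several classes. In B cell-like cells 1 of 40 with enough UMIs was higher (2.5%, against 2.46% of all genes) and 3 were lower (7.5%, against 3.22%). In erythroid-like cells under 1% Hb 4 of 41 were higher (9.76%, against 6.93%) and 3 lower (7.32%, against 8.95%). At 40% Hb and over 5 of 35 were higher (14.3%, against 10.8%) and 2 lower (5.71%, against 14.1%). At 10 to 40% Hb 2 of 37 were higher (5.41%, against 3.28%) and 3 lower (8.11%, against 14.5%). In GMP-like cells 0 of 38 were called in either direction, where 3.38% of all genes were higher and 3% lower. In the Cd34-led cluster 2 of 41 were higher (4.88%, against 2.12%) and 2 lower (4.88%, against 2.99%). In monocyte-like cells 3 of 35 were higher (8.57%, against 5.5%) and 2 lower (5.71%, against 9.07%). In immature neutrophil-like cells 1 of 36 was higher (2.78%, against 3.7%) and 2 lower (5.56%, against 2.15%). In the Mmp8-led cluster 1 of 20 was higher (5%, against 7.8%) and 1 lower (5%, against 2.84%). Their median log2 ratio was between −0.17 under 1% Hb and 0.13 in the Mmp8-led cluster, beside medians over all genes of −0.13 and 0.07 there. Txnip, the thioredoxin-interacting protein, had the highest ratio of its list, at 13 CPM in the WT and 44.3 CPM in the Cko under 1% Hb, a ratio of 3.41 (2.63 to 4.42). Hagh, the glyoxalase that uses glutathione, was called lower under 1% Hb as Mgst3 was, at 88.8 and 38.2 CPM, a ratio of 0.43 (0.35 to 0.53).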

How the data were processed

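Sc-RNA-Seq of RBC-free BMCs was performed by the authors with the Chromium Single Cell 3′ kit v2, and reads were processed with Cell Ranger on GRCm38 per the labels (version not given in the sources used here). The deposited values are whole-number counts of UMIs per gene and barcode, 1 table per library, without normalization; each listed gene reaches at least 4 UMIs in some cell. Barcodes with at least 200 genes were kept (6271 WT and 3662 Cko). No columns of values were left unused (0). Cells were clustered in Seurat 5.3.0 (R 4.3.3) over both libraries, with 5992 genes (no Gst or Mgst gene), 2000 variable genes, 20 principal components, 20 neighbours and a resolution of 1, with mitochondrial and ribosomal shares regressed out, and were named from marker lists. Scrublet in scanpy 1.11.5 marked 127 WT and 51 Cko cells as doublets; they were kept, and left out as an alternative. UMIs were summed per class and library and scaled to CPM. Sums have exact Poisson intervals, ratios exact conditional intervals and shares of cells exact binomial (Clopper-Pearson) ones, at 95%. A call is a Cko/WT ratio of at least 1.5 or at most 1/1.5 with at least 100 UMIs over both libraries, in classes of at least 50 cells in each. A count of 0 allows up to 3 UMIs. Likeness of genes was measured over 9 classes among genes with at least 500 UMIs in each library. The calls were tested on simulated counts. Members and lists were chosen with earlier results of these data known. The genes named are the 7 members, the 3 most like each, and from each glutathione list at most 2 genes with the highest ratio, the lowest ratio and the highest level. 16 alternatives were tried, 1 of them TMM factors from edgeR 4.0.16. Positions are from GENCODE vM21 and promoters from RefSeq; protein sequences were not used here.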

Additional observations from a re-analysis of the deposited data

Results flagged for a closer look

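The Cko/WT ratio of Gsto1 lay past 1.5-fold in opposite directions in different classes, at 1.501 in monocyte-like cells and at 0.5602 in erythroid-like cells at 10 to 40% Hb, where the Cko had 15 UMIs of the gene. The difference between the classes was not tested, since each genotype had 1 library.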

How the results depend on the processing

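Over the 16 alternatives, the number of pairs higher in the Cko was between 3 and 6 (4 as reported) and the number lower between 4 and 13 (8 as reported). The lower pairs numbered 5 with the mean over cells, 13 with a limit of 30 UMIs and 4 with a limit of 300 UMIs; the last 2 change which pairs can be called, and the cause of the first was not tested. The Mgst1 ratio in erythroid-like cells at 40% Hb and over turned to 2.34 with each library clustered on its own, to 1.08 at a resolution of 1.5 and to 1.06 without the Acp5-led cluster, the last chosen after seeing the data. The Mgst3 ratio in GMP-like cells turned to 1.01 without non-erythroid cells of at least 1% Hb, and its call was also lost, at 0.68 to 0.85, in 6 other alternatives (other clusterings, the marker-list classes, clustering without regression and the mean over cells). The calls of Gstm5 at 40% Hb and over (0.53 to 0.65) and of Mgst2 in B cell-like cells (1.83 to 2.17) were kept in 16 of 16 alternatives, and that of Mgst3 under 1% Hb (0.41 to 0.46) in 14 of 14 that gave a value. Mgst2 in monocyte-like cells was kept in 15 of 16 (1.93 to 2.89) and Mgst2 in the Cd34-led cluster in 11 of 14. The latter ratio ran from 1.53 (0.82 to 3.02) with each library clustered on its own to 6.34 at a resolution of 0.5. In these alternatives the class with stem and progenitor markers held other cells. It had 14 and 10 WT UMIs of Mgst2, against 163 in the Cd34-led cluster. Gsto1 was kept in monocyte-like cells in 9 of 16 (1.42 to 1.64) and at 10 to 40% Hb in 15 of 16 (0.24 to 0.65). Gstp1 at 10 to 40% Hb was kept in 6 of 16 (0.65 to 0.74). Mgst3 was kept in B cell-like cells in 14 of 16 (0.27 to 0.77) and in immature neutrophil-like cells in 15 of 16 (0.13 to 0.40). Other clusterings also gained calls: 8 pairs with each library clustered on its own, 9 at a resolution of 1.5 and 8 with a class per cell from the marker lists. Among them, Mgst1 in the class with mature neutrophil markers was at 4.07, 1.71 and 2.12 in that order. In the second, that class also held clusters led by Acp5 (120 WT and 23 Cko cells) and by Retnlg (45 and 36). In the first, the class with stem and progenitor markers had Gstm1 at 0.49 and Mgst1 at 0.63. These classes do not hold the same cells as the Mmp8-led and Cd34-led clusters. Gstm1 in immature neutrophil-like cells was at 0.63 in the second. Gstm5, Mgst3 and Gstp1 were highest in erythroid-like classes and Gstm1, Mgst1 and Mgst2 in granulocyte classes, 3 and 3, or 2 at the fewest. In the WT, Mgst1 was highest in monocyte-like cells with each library clustered on its own, at a resolution of 1.5 and with the marker-list classes. Gstp1 was highest in B cell-like cells with each library clustered on its own and with the marker-list classes. The class with the highest CPM also had the highest share of cells with a UMI for 8 of 14 gene and library pairs, and for 12 after thinning. No paired analysis was possible because each genotype had 1 library. With 1 library per genotype the spread between mice is unknown, and levels under 3 UMIs in a class are at the limit of the depth.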
